A study of Mus musculus with 16 samples.

Results

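The interaction of macrophage subset and lymph node asks, for every gene, whether subcapsular sinus macrophages (SSMs) and medullary sinus macrophages (MSMs) change in the same way between tumor-draining lymph nodes (tdLN) and non-draining lymph nodes (ndLN). It was computed as the log2 difference of tdLN minus ndLN in SSMs less the same difference in MSMs, so that a positive value means a higher response in SSMs. All 16 samples of the series entered it, as 8 libraries read on 2 lanes apiece, and 21085 of the 55423 rows of the count table held enough reads to be tested. The mice were male C57B/6 animals that all carried MOC2 tumors, a transplanted squamous cell carcinoma line, for 2 weeks after an injection into the skin of the flank beside the inguinal node. There were no mice without a tumor, so ndLN are nodes of tumor-bearing animals. Each pool joined 2 mice and gave 2 tdLN, the inguinal nodes on the tumor side, and 6 ndLN, namely the inguinal, axillary and brachial nodes of the other side. Therefore node position and the number of nodes cannot be told apart from drainage.

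Cells were sorted by surface protein, as CD169+ CD11b+ cells free of CD3, B220 and Ly6G. The SSM fraction was CD11c- with low side scatter and the MSM fraction was CD11c+ with high side scatter. Each of the 4 groups (SSMs from ndLN, SSMs from tdLN, MSMs from ndLN and MSMs from tdLN) held 2 libraries, numbered as pools 1 and 2, with 42972328 to 48130352 reads on genes per library. Levels are given as CPM, the reads of a gene scaled to equal library size with TMM normalization, so they can be compared between libraries for 1 gene but not between genes of different length. The transcript of the sorted protein CD169, Siglec1, was measured at 15.1 and 8.47 CPM in SSMs from ndLN, 70 and 59.2 in SSMs from tdLN, 0.795 and 1.63 in MSMs from ndLN and 5.96 and 5.64 in MSMs from tdLN. It was lowest in the MSM libraries, in which the 12 markers of cross-presenting dendritic cells (cDC1) summed to 6617 to 8110.5 CPM in ndLN and 7479 to 8891 in tdLN, compared with 1170.3 to 1218 and 1425 to 1517 in SSMs. Therefore SSM and MSM name the sorted fractions in what follows.

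SSMs line the floor of the sinus that lymph enters first and pass captured antigen on to B cells, whereas MSMs lie where lymph leaves the node and are strongly phagocytic. MHC class II molecules, which present peptides to CD4+ T cells, are loaded in late endosomes and lysosomes. There the invariant chain, encoded by Cd74, is cut away by cathepsins and the H2-DM proteins exchange its remnant for antigen peptide.

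A response was called at an adjusted p-value below 0.01 and a mean normalized count above 100 per lane, in edgeR's quasi-likelihood test with the Benjamini-Hochberg adjustment over all genes tested. SSMs responded in 640 genes, 3.04% of those tested, of which 419 were higher and 221 were lower in tdLN. MSMs responded in 5 genes (0.0237%), of which 1 was higher and 4 were lower. Both counts depended on the test and on single libraries. DESeq2's Wald test called 1932 genes in SSMs and 496 in MSMs. In edgeR the SSM response took in 18 genes without SSM ndLN pool 2, 8 without SSM tdLN pool 1, 2 without SSM tdLN pool 2 and 190 to 345 without any 1 of the other 5 libraries, and the MSM response 0 to 3 without any 1 library. The standard errors of both responses were alike, with medians of 0.21 in SSMs and 0.21 in MSMs on the log2 scale over the 9996 genes above the cut-off on the mean. Calls could fall only among these 9996 genes, whereas percentages are of all genes tested. The interaction was called in 8 genes, 0.0379% of those tested, and in 215 genes (1.02%) at an adjusted p-value below 0.05. Without adjustment, 2600 of all genes tested had an interaction p-value below 0.05. For the SSM response 4848 did, and for the MSM response 2517. The median absolute log2 response over the 9996 genes was 0.38 in SSMs and 0.25 in MSMs. Thus the sizes of the responses lay closer together than the counts of calls. Among the 215 genes, 171 (0.811% of those tested) were higher in the SSM response and 44 (0.209%) were lower. Across the 9996 genes, the responses of SSMs and MSMs had a Pearson r of 0.42 and a Spearman rho of 0.39. The responses share no library but come from the same mice, and genes are not independent replicates.

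The 8 genes whose interaction was called were H2-Ab1, Cd74, H2-DMb1, Kmo, Htr7, Plbd1 and Fgd2, higher in the SSM response, and Tnfrsf9, lower in it. In all 8 the response was called in SSMs and not in MSMs, and in 6 the estimates for SSMs and MSMs had opposite signs. The intervals of the MSM estimates, not adjusted over genes, lay above 0 for Kmo (0.26 to 0.90) and Tnfrsf9 (0.47 to 1.12). They lay below 0 for H2-Ab1 (-0.55 to -0.06), Plbd1 (-0.61 to -0.09) and Fgd2 (-0.68 to -0.12). For Cd74 (-0.55 to 0.001), H2-DMb1 (-0.43 to 0.18) and Htr7 (-0.31 to 0.39) they held 0, so the MSM direction was not settled. A missed call in MSMs is therefore not the absence of a response. No gene had an interaction call together with calls of opposite direction in SSMs and MSMs. With any 1 of the 8 libraries left out, 0 genes were called in edgeR at 0.01. At 0.05, 178 genes were called without SSM ndLN pool 1, 69 without SSM ndLN pool 2, 11 without MSM tdLN pool 2 and 0 without any of the other 5 libraries. DESeq2's Wald test called 677 genes with all libraries. All counts at 0.05 therefore describe the 8 libraries together.

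**Figure D1:**
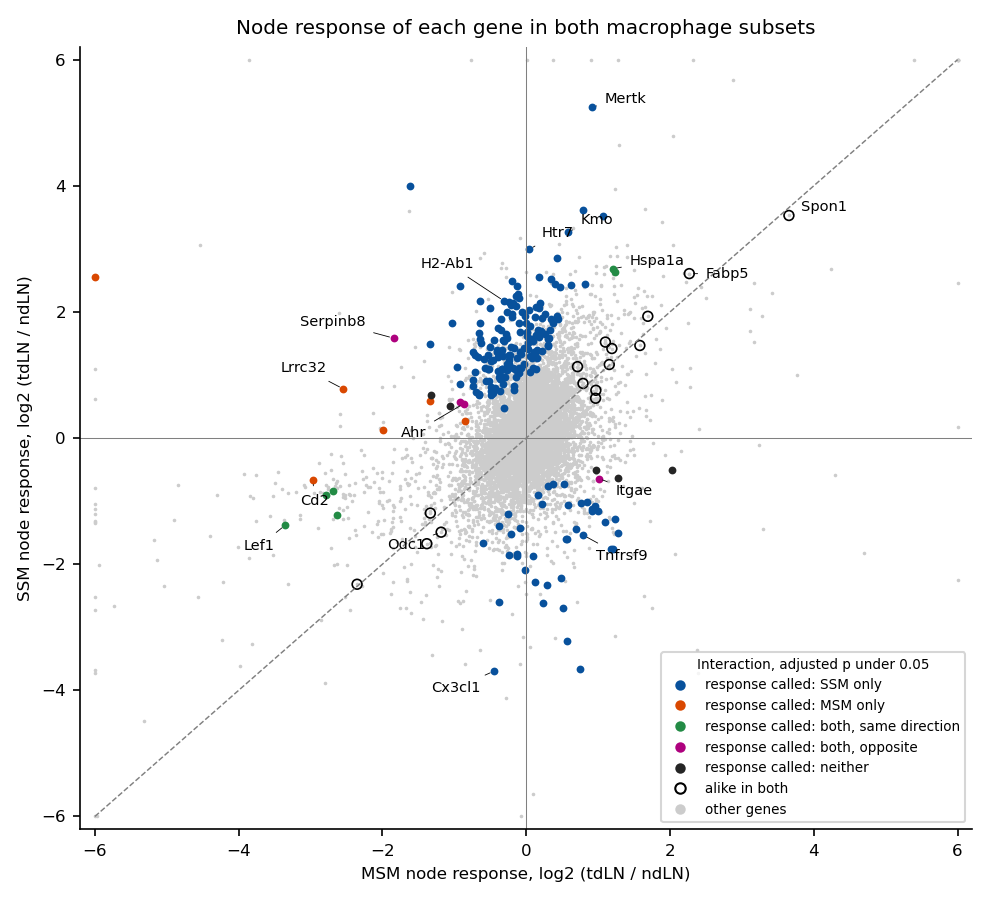
Log2 response (tdLN over ndLN) of each gene with a mean normalized count above 100, in MSMs on the x axis and SSMs on the y axis, drawn at 6 or -6 where it lies beyond. Colored points are the 215 genes whose interaction had an adjusted p-value below 0.05, colored by which response passed the same threshold, and open circles are the 15 genes with alike responses. Most of the colored points lie near 0 on the x axis and away from it on the y axis.

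Of the 11 genes for the chains, loading factors and transactivator of MHC class II, 7 rose in SSMs and 0 passed the test in MSMs. Over the 9996 genes above the cut-off, 419 rose in SSMs and 5 passed in MSMs. H2-Ab1, the beta chain of I-A (chr17:34257689-34269419, mm10), was measured at 2770.1 and 2121 CPM in SSMs from ndLN, 12022 and 9961 in SSMs from tdLN, 31880.0 and 27318 in MSMs from ndLN and 23585 and 23939 in MSMs from tdLN. Both SSM libraries from tdLN lay above both from ndLN, whereas the MSM libraries from tdLN lay below those from ndLN. In SSMs the gene rose by 2.17 ± 0.11 (log2, SE, adjusted p = 0.000798), and in MSMs the estimate was -0.31 ± 0.10, adjusted p = 0.307. The interaction was 2.48 ± 0.15 (95% interval 2.13 to 2.83, adjusted p = 0.00812). Cd74, the invariant chain, was measured at 5436 and 4253 CPM in SSMs from ndLN, 20778 and 18000.0 in SSMs from tdLN, 47633 and 39918 in MSMs from ndLN and 34262 and 37653 in MSMs from tdLN. Its groups were in the same order, with an interaction of 2.28 ± 0.17 (95% interval 1.89 to 2.67, adjusted p = 0.00854). H2-DMb1, a chain of the peptide exchanger H2-DM (chr17:34153072-34160230), stood at 160.4 and 135 CPM in SSMs from ndLN, 849 and 721 in SSMs from tdLN, 1419.7 and 1086 in MSMs from ndLN and 1114 and 1160.5 in MSMs from tdLN. The libraries of MSMs from tdLN lay within the range of those from ndLN, and the interaction was 2.53 ± 0.19 (95% interval 2.10 to 2.97, adjusted p = 0.00854). H2-DMb1 and H2-DMb2 are close copies between which reads may have been split.

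All 11 genes of the MHC class II list had a positive interaction, with a median of 2.23 on the log2 scale, compared with -0.01 over all genes tested. The list's median response was 2.09 in SSMs and -0.21 in MSMs. The 7 that rose in SSMs (H2-Aa, H2-Ab1, H2-Eb1, Cd74, H2-DMa, H2-DMb1 and Ciita) passed 0.01 there and also had an interaction adjusted p-value below 0.05. H2-Aa, the alpha chain of I-A, had an interaction of 2.23 ± 0.21, adjusted p = 0.0121. For H2-Eb1, the beta chain of I-E, it was 2.31 ± 0.21, adjusted p = 0.0114, and for H2-DMa, the partner of H2-DMb1, it was 2.40 ± 0.31, adjusted p = 0.0214. Ciita, the transactivator that switches on MHC class II genes, was measured at 35.6 and 27.8 CPM in SSMs from ndLN, 156 and 185 in SSMs from tdLN, 222 and 234 in MSMs from ndLN and 333 and 367 in MSMs from tdLN. It rose in SSMs by 2.42 ± 0.18 (adjusted p = 0.0011), the MSM estimate was also positive at 0.62 ± 0.16, adjusted p = 0.2, and the interaction was 1.80 ± 0.24, adjusted p = 0.0228. The chains of H2-DO, an inhibitor of H2-DM, did not pass in either subset. H2-Oa had an interaction of 0.17 ± 0.23 (95% interval -0.37 to 0.71, adjusted p = 0.901) and H2-Ob of 0.58 ± 0.22 (95% interval 0.08 to 1.09, adjusted p = 0.317), and in all 4 SSM libraries neither stood above 12.1 CPM.

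In sum over the list, MHC class II transcripts came to 8988 to 11823 CPM in SSMs from ndLN, 40387 to 47116 in SSMs from tdLN, 97700.0 to 112000.0 in MSMs from ndLN and 84060.0 to 91029 in MSMs from tdLN. Transcripts of other cell types moved in the SSM libraries together with these genes. Markers of type 3 innate-like lymphocytes summed to 3235 to 4088 CPM in SSMs from ndLN, 1256 to 1308 in SSMs from tdLN, 81.8 to 101 in MSMs from ndLN and 38.7 to 44.9 in MSMs from tdLN. Thus they were lower in the tdLN libraries of both subsets. The sum of the 12 cDC1 markers, given above, was higher in SSMs from tdLN than from ndLN, but their median response in SSMs was -0.57. Of the 12, 4 had a positive estimate, and at 0.05, 2 rose (Naaa and Tlr3) and 2 fell (Itgae and Xcr1). Over the 9996 genes above the cut-off, 1121 rose and 711 fell in SSMs at 0.05. The 16 cDC2 markers, 14 of them with a positive estimate in SSMs, summed to 1976 to 2118 CPM in SSMs from tdLN against 1104 to 1166 in SSMs from ndLN. In MSMs they summed to 2847 to 3057 CPM in ndLN and 2492 to 3093 in tdLN. The 14 monocyte markers were at 8436 to 8772 CPM in SSMs from tdLN and at 3809 to 5425 in SSMs from ndLN. In MSMs they were at 2628 to 2911 CPM in ndLN and 2529 to 2567 in tdLN. The median interaction was 1.13 for the cDC2 list (14 of 16 positive) and 1.09 for the monocyte list (12 of 14 positive). For the cDC1 list it was -0.2 (3 of 12 positive). The part of these transcripts in the MHC class II result was not tested. In sorted bulk samples, fewer cells of a type and less RNA per cell cannot be told apart.

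**Figure D2:**
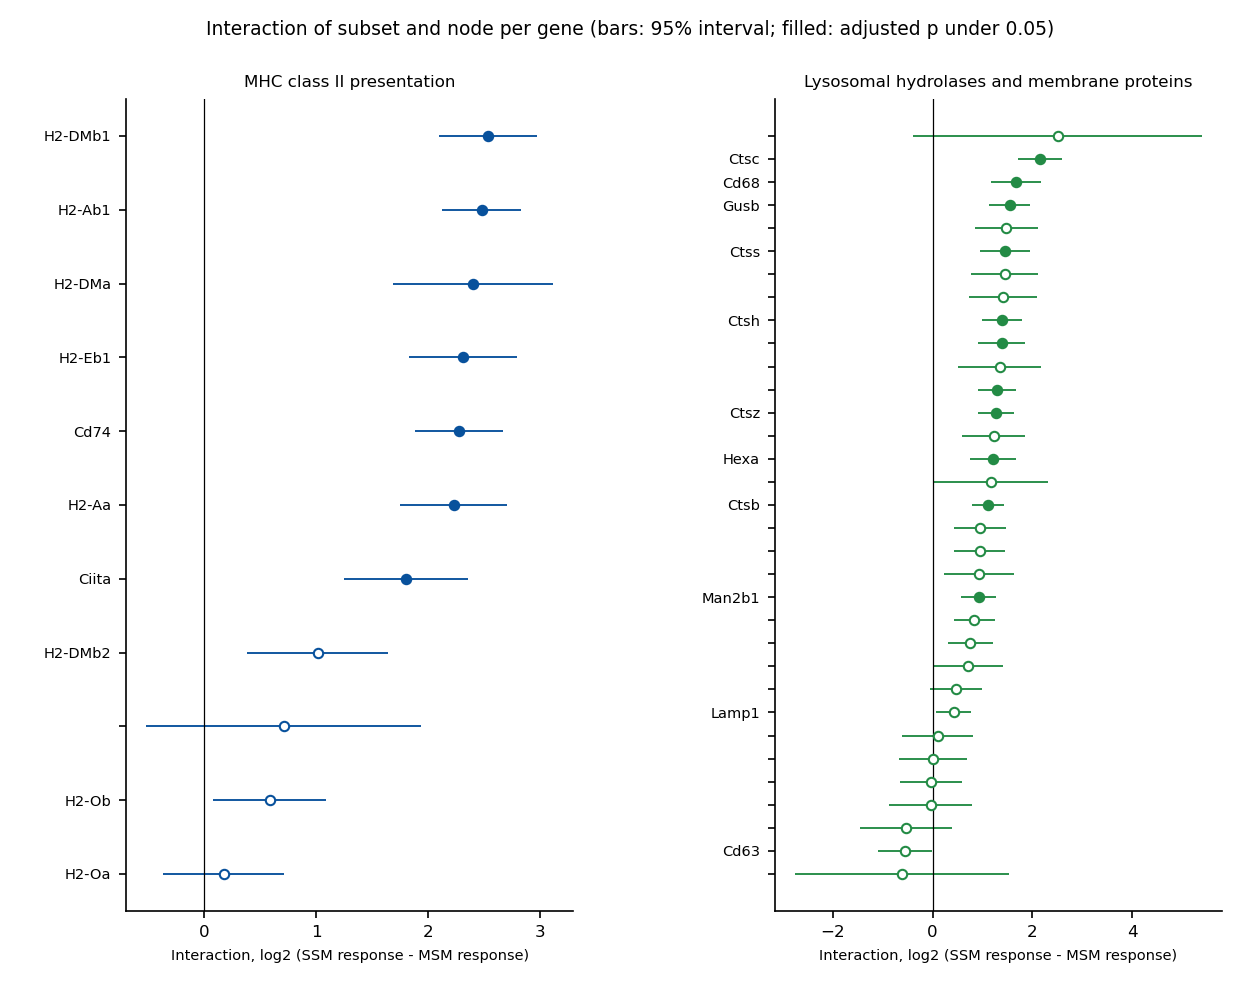
Interaction of subset and node (x axis, log2 of the SSM response minus the MSM response) for each tested gene of the MHC class II list and of the lysosomal list. Points are estimates, bars are 95% intervals, filled points passed an adjusted p-value of 0.05, and the genes described in the text are named. The 11 MHC class II genes lie at or above 0.17, and the lysosomal genes reach from -0.61 to 2.51.

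The promoters of 3 MHC class II genes whose interaction passed 0.05, and that of Tnfrsf9, the called gene of the other direction, are shown for their common letters. RefSeq promoter sequences on GRCm38.p6 were used, matched by symbol. They reach from 250 bases before to 50 bases after the start site of each promoter entry. For H2-DMb1 and Tnfrsf9 the gene coordinates given elsewhere begin upstream of this site. The sequences hold 1 promoter each for H2-Aa, H2-Eb1, H2-DMb1 and Kmo, and 2 each for H2-DMa and Tnfrsf9. GATTGG, the core of the Y box bound by NF-Y, was searched on both strands and is in capitals, also where it reads CCAATC on the other strand.
H2-Aa, chr17:34287774-34288073 (minus strand): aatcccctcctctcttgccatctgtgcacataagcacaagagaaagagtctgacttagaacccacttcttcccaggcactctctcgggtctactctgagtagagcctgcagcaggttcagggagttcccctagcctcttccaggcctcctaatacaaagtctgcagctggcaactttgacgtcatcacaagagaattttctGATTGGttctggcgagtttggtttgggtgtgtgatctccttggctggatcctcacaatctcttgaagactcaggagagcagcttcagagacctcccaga
H2-Eb1, chr17:34305617-34305916 (plus strand): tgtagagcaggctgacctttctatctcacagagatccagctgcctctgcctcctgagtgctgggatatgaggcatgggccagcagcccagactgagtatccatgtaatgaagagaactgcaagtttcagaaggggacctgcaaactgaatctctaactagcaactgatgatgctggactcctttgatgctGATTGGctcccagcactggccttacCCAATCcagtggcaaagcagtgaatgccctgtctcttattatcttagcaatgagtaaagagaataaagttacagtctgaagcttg
H2-DMb1, chr17:34152941-34153240 (plus strand): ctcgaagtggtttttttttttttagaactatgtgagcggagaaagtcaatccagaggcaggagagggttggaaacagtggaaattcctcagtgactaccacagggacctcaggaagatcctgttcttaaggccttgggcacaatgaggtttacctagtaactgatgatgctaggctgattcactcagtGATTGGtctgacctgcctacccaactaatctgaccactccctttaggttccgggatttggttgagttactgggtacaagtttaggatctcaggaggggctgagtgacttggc
Tnfrsf9, chr4:150919905-150920204 (plus strand): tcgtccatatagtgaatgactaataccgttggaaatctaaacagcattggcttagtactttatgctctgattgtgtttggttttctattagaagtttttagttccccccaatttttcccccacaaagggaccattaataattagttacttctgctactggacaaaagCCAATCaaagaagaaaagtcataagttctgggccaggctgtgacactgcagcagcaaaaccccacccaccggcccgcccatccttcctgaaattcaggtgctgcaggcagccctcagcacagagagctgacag
In H2-Aa the letters begin at position -49 from the start site of the promoter entry, and in H2-DMb1 at -62. H2-Eb1 holds them at -60 and, on the other strand, at -35. In Tnfrsf9 they stand at -83 in the promoter shown, on the other strand, and the other promoter of Tnfrsf9, 1 of the 2 of H2-DMa and that of Kmo do not hold them. Among 32851 promoters of this length, 5292 (16.1%) hold GATTGG on at least 1 strand. The motif was chosen after these sequences were seen, and a match describes letters, not binding.

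**Figure D3:**
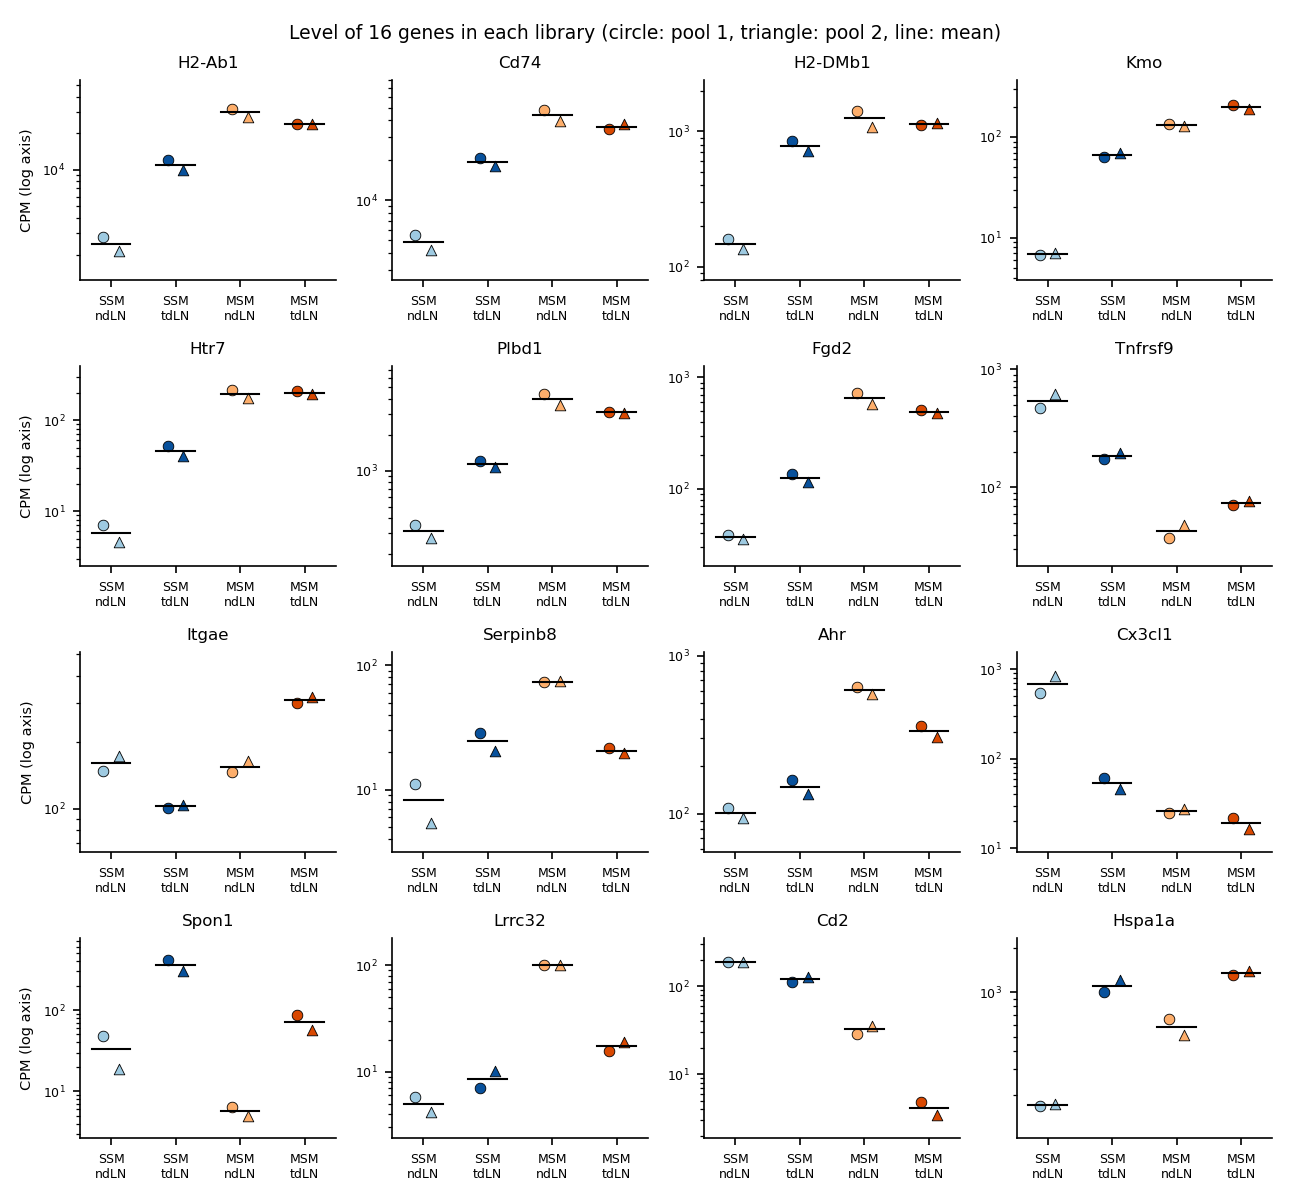
Level of 16 genes in each of the 8 libraries, in CPM on a log axis. Circles are pool 1, triangles are pool 2 and lines are group means. In H2-Ab1, Cd74, H2-DMb1, Kmo, Htr7, Plbd1 and Fgd2 the SSM libraries from ndLN are the lowest of all, and in Tnfrsf9 they are the highest.

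Kmo, kynurenine 3-monooxygenase (chr1:175620381-175662116), turns kynurenine, a breakdown product of tryptophan, into 3-hydroxykynurenine. It was measured at 6.75 and 6.97 CPM in SSMs from ndLN, 62.9 and 69.3 in SSMs from tdLN, 135 and 129.9 in MSMs from ndLN and 207 and 189 in MSMs from tdLN. SSMs from tdLN lay far above those from ndLN in both pools, and MSMs were above SSMs in both nodes. The gene rose by 3.27 ± 0.17 in SSMs (adjusted p = 0.000798), the MSM estimate was 0.58 ± 0.14, adjusted p = 0.165, and the interaction was 2.69 ± 0.22 (95% interval 2.18 to 3.19, adjusted p = 0.00947). Of the 16 tested genes of the tryptophan and kynurenine list, 7 of them above the cut-off on the mean, 1 had an interaction call at 0.01 and 3 at 0.05. Among all 9996 genes above the cut-off these counts were 8 and 215. The list median was 0.22. The median ran from -0.06 without SSM tdLN pool 1 to 0.75 without SSM ndLN pool 2, so no direction was read from it. Kynu, kynureninase, the next enzyme to use the product of Kmo, rose from 7.15 and 8.27 CPM to 23.3 and 25.3 in SSMs and was at 50.9 and 49 and 44.3 and 38.2 in MSMs. Its interaction was 1.93 ± 0.26, adjusted p = 0.0259. Haao, the dioxygenase that acts after Kynu, had an interaction of 0.64 ± 0.32, adjusted p = 0.503. Ido1, which starts the pathway, had a mean normalized count of 22 per lane, below the cut-off.

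The other 3 called genes with a higher response in SSMs belong to different families. Htr7, a serotonin receptor (chr19:35958734-36057507), stood at 7.04 and 4.55 CPM in SSMs from ndLN, 52 and 40.2 in SSMs from tdLN, 215 and 175 in MSMs from ndLN and 206 and 193 in MSMs from tdLN. Its MSM libraries from the 2 nodes overlapped, and the interaction was 2.95 ± 0.24 (95% interval 2.39 to 3.51, adjusted p = 0.00947). Plbd1, a phospholipase B domain protein (chr6:136612070-136661928), was measured at 352 and 274 CPM in SSMs from ndLN, 1214 and 1082 in SSMs from tdLN, 4356 and 3552 in MSMs from ndLN and 3108 and 3052 in MSMs from tdLN, with an interaction of 2.23 ± 0.16 (95% interval 1.86 to 2.60, adjusted p = 0.00854). Fgd2, an activator of the small GTPase Cdc42 (chr17:29360914-29379661), stood at 39 and 35.5 CPM in SSMs from ndLN, 137 and 115 in SSMs from tdLN, 724 and 582 in MSMs from ndLN and 508 and 479 in MSMs from tdLN, with an interaction of 2.15 ± 0.18 (95% interval 1.74 to 2.56, adjusted p = 0.00947). In Plbd1 and Fgd2 both MSM libraries from tdLN lay below both from ndLN, but the MSM response did not pass (adjusted p = 0.273 and 0.261). The next gene by p-value was Rab7b, a small GTPase of late endosomes, with 2.82 ± 0.24, adjusted p = 0.011.

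Of 33 genes of lysosomal hydrolases and membrane proteins, 11 had an interaction adjusted p-value below 0.05, all of them positive, and 0 passed 0.01. Over all genes, 171 of the 9996 above the cut-off had such a positive interaction at 0.05. In SSMs 18 genes of the list rose at 0.01 and none fell, whereas in MSMs 0 passed 0.01 and 2 rose at 0.05, Lamp1 and Cd63. The medians were 1.18 in SSMs and 0.08 in MSMs. Ctsc, cathepsin C, which activates serine proteases, was measured at 901 and 596 CPM in SSMs from ndLN, 3204 and 2567 in SSMs from tdLN, 969 and 907 in MSMs from ndLN and 927 and 729.8 in MSMs from tdLN. SSMs from tdLN were the highest group, all other libraries lay far below them, and the interaction was 2.16 ± 0.19, adjusted p = 0.011. Ctss, the cathepsin best known for cutting the invariant chain, had an interaction of 1.45 ± 0.22, adjusted p = 0.0346. Gusb (beta-glucuronidase), Ctsh, Ctsz, Hexa, Ctsb, Cd68 and Man2b1 had interactions between 0.93 and 1.67. Lamp1, a major lysosomal membrane protein, responded alike, with 1.13 ± 0.11 in SSMs and 0.71 ± 0.11 in MSMs and an interaction of 0.42 ± 0.15 (95% interval 0.07 to 0.77, adjusted p = 0.304). Cd63, which is also found on exosomes, had the lower response in SSMs, at 0.70 ± 0.17 against 1.25 ± 0.17 in MSMs, but the interaction did not pass (-0.56 ± 0.23, adjusted p = 0.389). Among the 17 genes of the vacuolar ATPase, which acidifies lysosomes, 16 had a positive interaction and 1 passed 0.05, Atp6ap2 (1.21 ± 0.19, adjusted p = 0.0398). In SSMs 5 of them rose at 0.01, compared with 419 of the 9996 genes above the cut-off.

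The costimulatory ligands Cd86 and Cd80 and 5 immediate early genes also had a positive interaction that passed 0.05. Cd86, the ligand of CD28, was measured at 121 and 95.6 CPM in SSMs from ndLN, 309.6 and 210.4 in SSMs from tdLN, 999 and 875 in MSMs from ndLN and 659 and 586 in MSMs from tdLN. It rose in SSMs by 1.25 ± 0.14 (adjusted p = 0.0026), the MSM estimate was -0.59 ± 0.13, adjusted p = 0.148, and the interaction was 1.84 ± 0.19, adjusted p = 0.0176. Cd80, the other such ligand, had an interaction of 1.57 ± 0.25, adjusted p = 0.0388, but neither response passed 0.05 on its own. These 2 genes were the ones that passed 0.05 among the 22 genes of antigen-presenting cell maturation, whose median interaction was -0.55 and of which 8 were positive. The median was -0.24 without MSM tdLN pool 1 and -0.34 without SSM tdLN pool 1. Thus most of the list did not follow Cd80 and Cd86. For Ccr7, the receptor that guides migrating dendritic cells, the interaction was -1.38 ± 0.26, adjusted p = 0.0675. Of the 21 immediate early genes, 5 passed 0.05, all positive, compared with 171 positive ones among the 9996 genes above the cut-off. Ier3 had the largest estimate (2.32 ± 0.31, adjusted p = 0.0228), followed by the transcription factor Egr2 (2.00 ± 0.18, adjusted p = 0.0114), the mRNA decay factor Zfp36 (1.66 ± 0.18, adjusted p = 0.0176), Atf3 (1.10 ± 0.18, adjusted p = 0.0402) and the phosphatase Dusp1 (1.00 ± 0.17, adjusted p = 0.0437). Fos and Jun rose in SSMs at 0.01, by 0.93 ± 0.12 and 1.67 ± 0.15, with interactions of 0.61 ± 0.17 and 0.78 ± 0.21 that did not pass.

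Il1b and Il1a, which encode the 2 forms of interleukin-1, passed 0.05 for the interaction among 26 cytokine and polarization genes. Over the 9996 genes above the cut-off, 215 did. Il1b was measured at 1979.5 and 1111 CPM in SSMs from ndLN, 6856 and 5728 in SSMs from tdLN, 3602 and 3210.5 in MSMs from ndLN and 3874 and 3816 in MSMs from tdLN, and its interaction was 1.87 ± 0.26, adjusted p = 0.026. For Il1a the interaction was 2.01 ± 0.30, adjusted p = 0.0355, with levels that were higher in tdLN than in ndLN in SSMs (36.1 and 37.1 against 24.2 and 21.2 CPM) and lower in MSMs (7 and 9.44 against 18.6 and 22.6), although neither response passed 0.05. The immune inhibitory receptor Havcr2, also called TIM-3, had an interaction of 1.76 ± 0.21, adjusted p = 0.0186.

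Receptors for apoptotic cells and antibodies gave a mixed picture, with some higher in the SSM response and others not distinguishable. Of the 19 tested genes for uptake of apoptotic cells and complement, 8 rose in SSMs at 0.01 and 0 in MSMs. Over the 9996 genes above the cut-off, 419 rose in SSMs and 1 in MSMs, and 215 interactions passed 0.05. In the list 3 interactions passed 0.05, among them the receptor kinases Mertk (4.33 ± 0.69, adjusted p = 0.0368) and Axl (1.51 ± 0.23, adjusted p = 0.0355). Mertk stood at 0.129 and 0.465 CPM in SSMs from ndLN, 14.1 and 8.21 in SSMs from tdLN, 3.82 and 2.7 in MSMs from ndLN and 7.27 and 5.06 in MSMs from tdLN, so the SSM libraries from ndLN held few reads. C1qa, C1qb and C1qc, the chains of the first complement component, rose in SSMs by 3.42 ± 0.46, 3.62 ± 0.39 and 3.05 ± 0.35. The MSM estimates were also positive, at 1.89 ± 0.45, 1.65 ± 0.37 and 1.40 ± 0.34, and the interactions did not pass, with adjusted p-values of 0.379, 0.155 and 0.185. Among 15 Fc receptor genes, the inhibitory receptor Fcgr2b (2.05 ± 0.31, adjusted p = 0.0355), the neonatal receptor Fcgrt (1.69 ± 0.27, adjusted p = 0.0382) and the Fc receptor-like gene Fcrl1 of B cells (2.83 ± 0.36, adjusted p = 0.021) passed 0.05. Fcgr1, the high affinity receptor, had an interaction of 0.71 ± 0.72 (95% interval -0.98 to 2.39, adjusted p = 0.828), an interval too wide to tell the subsets apart. Of 21 tested genes of sinus macrophage identity, 8 rose in SSMs at 0.01, and Cd68 and Mertk passed 0.05 for the interaction. Siglec1 had nearly the same estimate in both subsets, 2.47 ± 0.26, adjusted p = 0.00259 in SSMs and 2.22 ± 0.45, adjusted p = 0.119 in MSMs, with an interaction of 0.25 ± 0.57 (95% interval -1.07 to 1.58, adjusted p = 0.984).

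Tnfrsf9 was the gene with a lower response in SSMs that passed 0.01. It encodes CD137 (4-1BB), a costimulatory receptor of activated lymphocytes that other immune cells also carry (chr4:150914562-150946102). It was measured at 469 and 614 CPM in SSMs from ndLN, 175 and 195 in SSMs from tdLN, 37.4 and 48.1 in MSMs from ndLN and 70.9 and 76.7 in MSMs from tdLN. SSMs from ndLN were the highest group, and the tdLN libraries were lower in SSMs and higher in MSMs. The SSM response was -1.54 ± 0.13, adjusted p = 0.00172, the MSM response was 0.80 ± 0.14, adjusted p = 0.0753, and the interaction was -2.34 ± 0.19 (95% interval -2.79 to -1.89, adjusted p = 0.00947). In the list of 16 genes of lymphocyte costimulation and checkpoints, Tnfrsf9 and Havcr2 passed 0.05 for the interaction, in opposite directions, and 4 genes fell in SSMs at 0.01. The other 3 of these were Tnfrsf18 (-1.35 ± 0.15), Pdcd1 (-1.86 ± 0.21) and Cd96 (-1.11 ± 0.16). Over the 9996 genes above the cut-off, 215 interactions passed 0.05 and 221 genes fell in SSMs at 0.01. Cd27 and Cd28 fell in MSMs at 0.05, with responses of -2.95 ± 0.32 and -2.55 ± 0.32 on the log2 scale and interactions of 2.08 ± 0.38, adjusted p = 0.0613 and 1.65 ± 0.40, adjusted p = 0.125. The 17 T cell markers summed to 3036 to 3502 CPM in SSMs from ndLN, 1379 to 1517 in SSMs from tdLN, 897 to 997 in MSMs from ndLN and 546 to 586 in MSMs from tdLN, lower in the tdLN libraries of both subsets. Their part in the Tnfrsf9 result was not tested.

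At 0.05 the lower response in SSMs took in ligands, receptors and signalling proteins. Cx3cl1, the membrane-bound chemokine fractalkine, was measured at 538 and 851 CPM in SSMs from ndLN, 60.4 and 46.4 in SSMs from tdLN, 24.9 and 27.3 in MSMs from ndLN and 21.8 and 16.5 in MSMs from tdLN. SSMs from ndLN stood well above the other groups, and the interaction was -3.25 ± 0.38, adjusted p = 0.0186. Cxcr5, the receptor for the follicular chemokine CXCL13, fell in SSMs from 23.9 and 36 to 4.84 and 7.11 CPM and had an interaction of -2.61 ± 0.33, adjusted p = 0.0209. For Sema4c, a semaphorin, the interaction was -3.20 ± 0.38, adjusted p = 0.0186, and for Gdpd5, a glycerophosphodiester phosphodiesterase, it was -2.40 ± 0.27, adjusted p = 0.0176. In these 4 genes the MSM response had an adjusted p-value of at least 0.525.

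A further 4 genes had lower values in SSMs and higher values in MSMs of tdLN. S1pr3, a receptor for sphingosine-1-phosphate, was measured at 53.7 and 55.2 CPM in SSMs from ndLN, 17 and 15 in SSMs from tdLN, 4.46 and 6.77 in MSMs from ndLN and 13.5 and 12.6 in MSMs from tdLN, with an interaction of -2.97 ± 0.33, adjusted p = 0.0176. Serpinb1a, an inhibitor of neutrophil serine proteases, stood at 432 and 469 CPM in SSMs from ndLN, 139 and 179 in SSMs from tdLN, 127 and 90.7 in MSMs from ndLN and 265 and 263 in MSMs from tdLN, with an interaction of -2.79 ± 0.28, adjusted p = 0.0165. F2rl2, a protease-activated receptor, and Yes1, a kinase of the Src family, had interactions of -2.43 ± 0.27, adjusted p = 0.0186 and -2.94 ± 0.34, adjusted p = 0.0186. The fall in SSMs passed 0.01 in all 4, whereas the MSM estimates of 1.09 to 1.28 did not pass 0.05 (adjusted p = 0.0545 to 0.151). Hk2, a hexokinase, and Mvk, mevalonate kinase, were the members of the glycolysis and cholesterol synthesis lists that passed, with interactions of -1.62 ± 0.23, adjusted p = 0.0318 and -2.07 ± 0.32, adjusted p = 0.0367. The other members of both lists did not pass.

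Responses in opposite directions, with each of the 3 tests below an adjusted p-value of 0.05, were found in 4 genes. None of them passed 0.01 for the interaction, and Serpinb8 and Plek fall outside the rule for named genes and were chosen after their values were seen. Itgae, the integrin CD103, was measured at 148 and 174 CPM in SSMs from ndLN, 101 and 104 in SSMs from tdLN, 146 and 164 in MSMs from ndLN and 301 and 321 in MSMs from tdLN. The ndLN libraries of SSMs and MSMs overlapped, but those from tdLN did not, since the gene fell in SSMs (-0.64 ± 0.13, adjusted p = 0.0212) and rose in MSMs (1.01 ± 0.13, adjusted p = 0.0297). The interaction was -1.65 ± 0.18 (95% interval -2.06 to -1.23, adjusted p = 0.0176). Serpinb8, an intracellular protease inhibitor, went the other way. It stood at 11 and 5.4 CPM in SSMs from ndLN, 28.6 and 20.4 in SSMs from tdLN, 73 and 74.1 in MSMs from ndLN and 21.6 and 19.6 in MSMs from tdLN, so that the fractions lay close together in tdLN, and the interaction was 3.43 ± 0.37 (95% interval 2.57 to 4.29, adjusted p = 0.0176). Ahr, the aryl hydrocarbon receptor, which binds kynurenine among other ligands, was measured at 109 and 94 CPM in SSMs from ndLN, 162 and 134 in SSMs from tdLN, 637 and 572 in MSMs from ndLN and 357 and 305 in MSMs from tdLN. It rose in SSMs (0.54 ± 0.12, adjusted p = 0.0282) and fell in MSMs (-0.87 ± 0.11, adjusted p = 0.0316), and the interaction was 1.41 ± 0.16 (95% interval 1.03 to 1.80, adjusted p = 0.0186). Plek, the protein kinase C substrate pleckstrin, responded by 0.58 ± 0.13, adjusted p = 0.0376 in SSMs and by -0.92 ± 0.13, adjusted p = 0.0434 in MSMs, with an interaction of 1.50 ± 0.19, adjusted p = 0.0209. By sign alone, 145 of the 215 genes had opposite estimates, 112 of them higher in tdLN in SSMs and 33 lower, and 70 had the same sign. Of the 9996 genes above the cut-off, 64.9% had the same sign. Choosing genes by a large difference between the responses itself favors opposite signs, so this count is a description.

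Of the 215 genes, 194 passed 0.05 in SSMs and not in MSMs, 6 in MSMs and not in SSMs, 6 in both with the same direction, 4 in both with opposite directions and 5 in neither. The responses and the interaction use the same libraries, so these classes are a description of the interaction genes. At 0.05 the SSM response was called in 1832 genes (8.69% of those tested) and the MSM response in 93 (0.441%). The MSM estimate had the same sign as the SSM estimate in 1368 (74.7%) of the 1832, compared with 64.9% of the 9996 genes above the cut-off. The interval of the interaction lay within 1 log2 unit of 0 in 284 of the 1832. In 1344 it reached beyond without an interaction call, and for these the data do not tell alike from unlike responses.

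The 6 genes that passed in MSMs alone all fell there. Apart from Treml4, a list member, they were named after their values were seen. Lrrc32, known as GARP, which holds latent TGF-beta at the cell surface, was measured at 5.76 and 4.16 CPM in SSMs from ndLN, 7.02 and 10.2 in SSMs from tdLN, 101 and 101 in MSMs from ndLN and 15.8 and 18.9 in MSMs from tdLN. Both MSM libraries from ndLN stood far above all others, and the interaction was 3.33 ± 0.36 (95% interval 2.49 to 4.16, adjusted p = 0.0176). Cd2, an adhesion molecule of T and NK cells, was the gene of this class that passed 0.01 in MSMs. It stood at 191 and 191 CPM in SSMs from ndLN, 113 and 128 in SSMs from tdLN, 28.9 and 35.8 in MSMs from ndLN and 4.87 and 3.43 in MSMs from tdLN, with an interaction of 2.30 ± 0.29 (95% interval 1.63 to 2.97, adjusted p = 0.0209). Treml4, a receptor of myeloid cells, had an interaction of 1.92 ± 0.23, adjusted p = 0.0186, the sphingomyelinase-like Smpdl3b of 2.13 ± 0.34, adjusted p = 0.0403 and the scaffold protein Grasp of 1.13 ± 0.18, adjusted p = 0.0406. The sixth, the immunoglobulin segment Iglv2, rested on a single library, since MSM ndLN pool 1 held 284 CPM and the other 7 libraries held at most 0.894. The same library had 1459.9 CPM of Ighm, the heavy chain of IgM, against 182 to 312 in the others.

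Of the 17 T cell markers, 10 fell at 0.05 in SSMs and 10 in MSMs, compared with 711 and 67 of the 9996 genes above the cut-off. Lef1, a transcription factor of T cells, was measured at 42.3 and 51.9 CPM in SSMs from ndLN, 17.2 and 18.8 in SSMs from tdLN, 18.8 and 20.3 in MSMs from ndLN and 1.99 and 1.85 in MSMs from tdLN. The log2 response was -1.38 ± 0.18, adjusted p = 0.00458 in SSMs and -3.35 ± 0.25, adjusted p = 0.00964 in MSMs, with an interaction of 1.97 ± 0.32, adjusted p = 0.0402. Outside the rule for named genes, Ets1, Lat and Sh2d2a, which act in T cell transcription and receptor signalling, also fell in both at 0.05, with interactions of 1.41 ± 0.21, 1.89 ± 0.30 and 1.85 ± 0.27, each past 0.05. Among the 17 T cell markers, 14 had a positive interaction, 1 of which (Lef1) passed 0.05. The list's median response was -0.92 in SSMs and -2.42 in MSMs, with 5 members lower in SSMs and 1 lower in MSMs at 0.01. Cd3e, whose protein was gated out, was at 151 and 143 CPM in SSMs from ndLN, 75 and 84.3 in SSMs from tdLN, 12.3 and 16.3 in MSMs from ndLN and 3.05 and 2.14 in MSMs from tdLN. The MSM libraries thus started from lower levels of this transcript than the SSM libraries. For Cd4, which T cells share with some myeloid cells, the order was the reverse, with -2.56 ± 0.28 in SSMs and -0.50 ± 0.27 in MSMs and an interaction of -2.07 ± 0.38, adjusted p = 0.0636. The remaining 2 genes of the class with both responses in the same direction were the heat shock genes Hspa1a and Hspa1b. Hspa1a stood at 170.3 and 174 CPM in SSMs from ndLN, 998 and 1216 in SSMs from tdLN, 655 and 509 in MSMs from ndLN and 1299 and 1388 in MSMs from tdLN, with an interaction of 1.48 ± 0.22, adjusted p = 0.0355. These are near-identical copies, so reads may have been split between them.

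Genes that responded alike had both responses called in the same direction and an interaction interval within 1 log2 unit of 0. At 0.01, 4 genes were called in both subsets, all in the same direction, and Spon1 was the 1 gene whose interval met this bound. Spon1, the matrix protein F-spondin (chr7:113765998-114043370), was measured at 47.3 and 18.6 CPM in SSMs from ndLN, 408 and 306 in SSMs from tdLN, 6.38 and 4.93 in MSMs from ndLN and 86.4 and 57.1 in MSMs from tdLN. It rose by 3.53 ± 0.25 in SSMs (adjusted p = 0.0011) and by 3.65 ± 0.28 in MSMs (adjusted p = 0.00964), with an interaction of -0.12 ± 0.36 (95% interval -0.97 to 0.72, adjusted p = 1.0). The other 3 were Lef1, Ets1 and Bpifa2. Bpifa2, a salivary protein, was at 61.6 and 59.4 CPM in SSMs and 28.4 and 24.7 in MSMs from ndLN, and at most at 3 reads in every tdLN library, so no fold was read from it.

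At 0.05, 15 genes responded alike, 11 higher and 4 lower in tdLN, and those other than Spon1 and the list members Fabp5, Spic, Osm and Lamp1 were named after their values were seen. Fabp5, a fatty acid binding protein, was measured at 52.5 and 50 CPM in SSMs from ndLN, 239 and 411 in SSMs from tdLN, 65.8 and 94.6 in MSMs from ndLN and 337 and 430.1 in MSMs from tdLN. All tdLN libraries lay above all ndLN libraries, and the interaction was 0.34 ± 0.28 (95% interval -0.32 to 1.00, adjusted p = 0.75). Spic, a transcription factor of iron-recycling macrophages, rose by 1.93 ± 0.15 in SSMs and 1.69 ± 0.17 in MSMs, and Osm, the cytokine oncostatin M, by 1.42 ± 0.14 and 1.19 ± 0.15. The other genes that rose were Lamp1, Flot1, F11r, Nupr1, Epsti1, Tmem176a and Tmem176b, with interactions between -0.33 and 0.42. Odc1, which starts polyamine synthesis, fell from 2642 and 3135 to 1082 and 968 CPM in SSMs and from 983 and 1043 to 454 and 438 in MSMs. F2r, a thrombin receptor, Satb1, an organizer of chromatin, and Rbpms2, an RNA binding protein, fell as well, with interactions of -0.29 ± 0.21, 0.14 ± 0.19 and 0.03 ± 0.41.

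**Figure D4:**
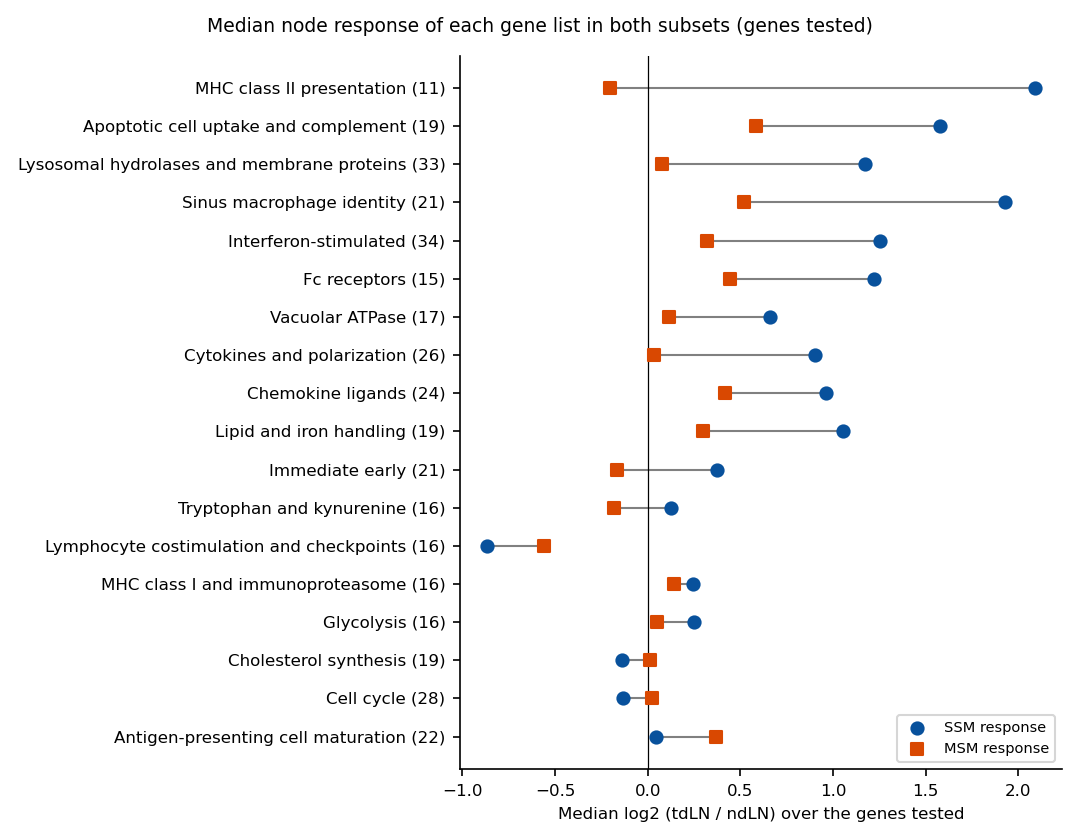
Median log2 response (tdLN over ndLN) of the tested genes of 18 lists in SSMs (circles) and MSMs (squares), ordered by the median interaction, with the number of genes tested in brackets. The widest gap is that of the MHC class II list, at 2.09 against -0.21, and cell cycle genes are near 0 in both subsets.

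Several lists had no interaction that passed 0.05. Of 34 interferon-stimulated genes, 30 had a positive interaction with a median of 0.85. The median was 0.41 and 0.45 without pool 1 of MSMs from ndLN and tdLN, 0.46 and 0.49 without pool 2 of SSMs from ndLN and tdLN, 1.37 without MSM tdLN pool 2 and 1.59 without SSM ndLN pool 1. Oas1a and Stat2 were the 2 that rose in SSMs at 0.01. Their interactions were 1.13 ± 0.43, adjusted p = 0.325 and 0.99 ± 0.25, adjusted p = 0.142. Cxcl9, a chemokine induced by interferon gamma, had an interaction of 2.51 ± 0.58, adjusted p = 0.112. The 16 genes of MHC class I and the immunoproteasome had medians of 0.25 in SSMs and 0.14 in MSMs. H2-K1, a classical class I chain, had an interaction of -0.12 ± 0.12 (95% interval -0.41 to 0.17, adjusted p = 0.822), and B2m, the light chain of class I, of -0.03 ± 0.25 (95% interval -0.60 to 0.54, adjusted p = 1.0). Thus the intervals of these 2 class I genes lay below those of H2-Ab1, Cd74 and H2-DMb1. The 24 tested chemokine ligands and the 28 cell cycle genes also had no interaction at 0.05, with Cx3cl1, described above, not on the chemokine list, and 0 cell cycle genes passed 0.01 in either subset.

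The interaction can also be read as a change in the distance between the subsets. This restates the same contrast and is given without a test. Among the 171 genes with a higher response in SSMs, 154 (90.1%) were lower in SSMs than in MSMs of ndLN, compared with 53.2% of the 9996 genes above the cut-off. The median difference of SSMs minus MSMs in these 171 genes was -1.80 in ndLN and -0.06 in tdLN on the scale of log2(CPM + 0.5). Among the 44 genes with a lower response, 41 (93.2%) were higher in SSMs of ndLN, with medians of 1.78 in ndLN and -0.10 in tdLN. By these medians both sets lay nearer to equal levels in tdLN. The distance itself was smaller in tdLN in 136 of the 171 genes and 35 of the 44 (79.5% each). Among the 9996 genes it was smaller in 59%. In the MHC class II list all 11 genes were lower in SSMs in ndLN, and the median difference went from -3.23 in ndLN to -1.12 in tdLN.

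Transcripts of cells outside the gates differed between the libraries and are given by list. Markers of mast cells and basophils summed to 2276 to 3373 CPM in SSMs from ndLN, 478 to 947 in SSMs from tdLN, 673 to 693 in MSMs from ndLN and 312 to 410.1 in MSMs from tdLN, and those of type 2 innate lymphocytes to 1109 to 1392 CPM in SSMs from ndLN, 395 to 487 in SSMs from tdLN, 59.9 to 71.4 in MSMs from ndLN and 32.1 to 49.7 in MSMs from tdLN. SSMs from ndLN had the highest sums in both. Not all of the 18 mast cell and basophil markers followed the lower sum in SSMs from tdLN. In SSMs 4 of the 18 had a positive estimate, and at 0.05, 2 rose and 8 fell. Over the 9996 genes above the cut-off, 1121 rose and 711 fell in SSMs at 0.05. Il22, a product of type 3 lymphocytes, was at 368 and 444 CPM in SSMs from ndLN, 85 and 58.6 in SSMs from tdLN, 3.54 and 1.78 in MSMs from ndLN and 0 and 0.044 in MSMs from tdLN. NK cell and cytotoxic markers summed to 3993 to 5114 CPM in SSMs from ndLN, 3127 to 4504 in SSMs from tdLN, 534 to 608 in MSMs from ndLN and 671 to 823 in MSMs from tdLN, with nodes that overlapped in SSMs. Most of these 15 markers did not follow the higher sum in MSMs from tdLN. Their median MSM response was -0.85, 3 had a positive estimate, and at 0.05, 0 rose and 2 fell. Over the 9996 genes, 26 rose and 67 fell in MSMs at 0.05. Neutrophil markers were at 144 to 374 CPM in SSMs from ndLN and 388 to 878 in SSMs from tdLN, and Ly6g, the marker used to remove these cells, had 28 reads over all libraries. Besides Lef1, the genes of these lists with an interaction adjusted p-value below 0.05 were Itgae and Naaa among the cDC1 markers and Treml4 among the monocyte markers. The part of these transcripts in any interaction was not tested.

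**Figure D5:**
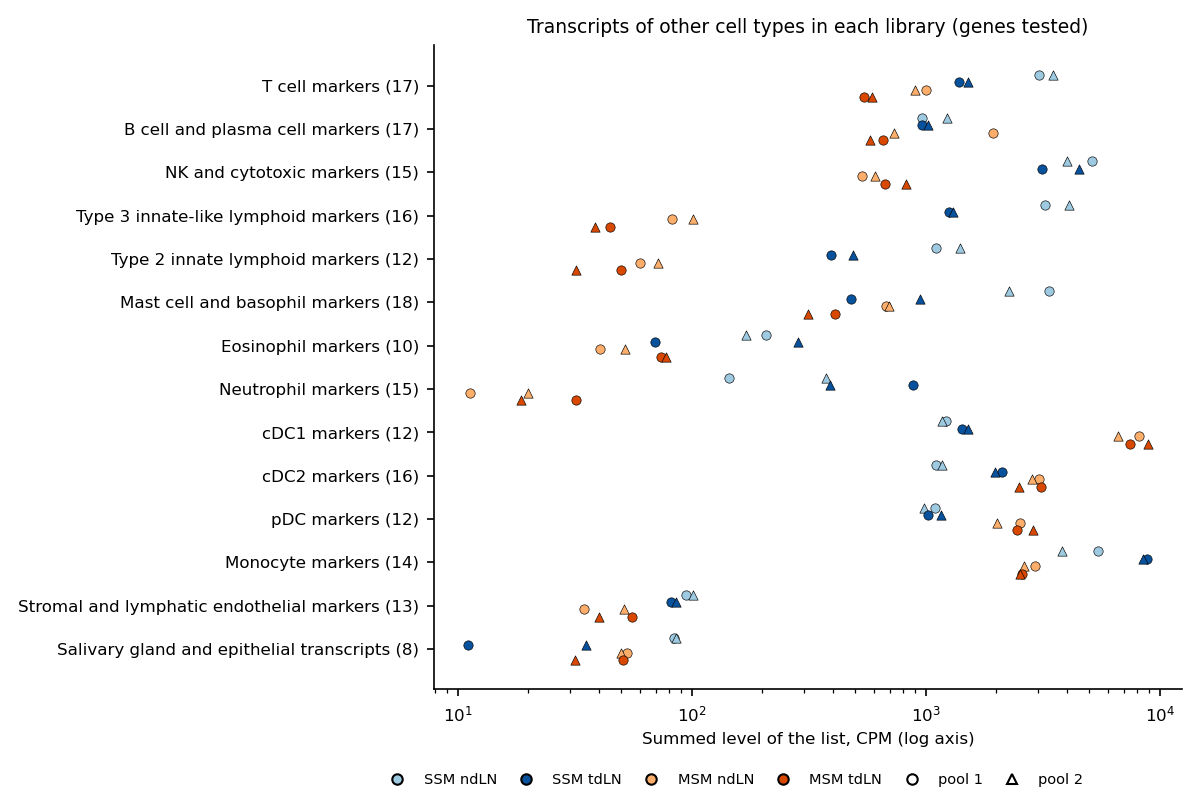
Summed level of the tested marker genes of 14 other cell types or tissues in each library, in CPM on a log axis, with the number of genes in brackets. Circles are pool 1 and triangles are pool 2. Type 3 innate-like lymphoid markers lie at 3235 to 4088 CPM in SSMs from ndLN and at 1256 to 1308 in SSMs from tdLN.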

How the data were processed

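Gene expression was measured by RNA sequencing of sorted SSMs and MSMs from tdLN and ndLN. Libraries were made by the authors with SMART-Seq v4, and reads were processed with bcl2fastq 2.20.0.422, Trimmomatic 0.36 and STAR 2.5.3a on mm10. Raw counts per gene, without normalization, were deposited by the authors for 16 samples, and 0 columns were left unused. The strand setting and annotation release are not given in the sources used here, so reads of overlapping and antisense genes cannot be told apart. Gene IDs matched GENCODE M21 in 55240 rows.

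Lane counts were summed for each library, since the lanes were within sampling noise of each other (chi-square per degree of freedom 0.955 to 1.02, in genes with at least 20 counts). A gene was tested if it had 10 or more counts in total and was detected in 2 or more samples. The model in edgeR 4.0.16 (quasi-likelihood, TMM, R 4.3.3) held group and pool for the 8 libraries, and intervals are 95% intervals of the moderated test. By the study's methods every pool of mice gave all 4 sorted samples, so same-numbered libraries were taken as 1 pool. The labels do not state this pairing. The label of the SSM tdLN library taken as pool 1 holds no number, so its number was inferred. The methods count 4 pools as biological replicates, but the labels hold 2 libraries per group read on 2 lanes, and the 2 lanes of a library were counted as 1 replicate. Deviations of same-numbered libraries correlated between -0.15 and 0.16 over 10000 genes. With n = 2 per group, p-values rest on the spread left after group and pool, estimated over all 8 libraries together. At 3 counts, the floor, a library reads 0.0623 to 0.0698 CPM on its raw size, before TMM scaling, which covers counting error only.

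The subset by node contrast, the markers Kmo, H2-Ab1 and Tnfrsf9, the 33 gene lists (557 genes, of which 546 were tested) and the tests were chosen with earlier results of these data known. Named genes are these markers, up to 10 genes per direction with the largest interaction at 0.01 (filled by p-value at 0.05), up to 8 alike genes per direction, genes called in opposite directions and list members. Immunoglobulin and T cell receptor segments and unnamed gene models were counted without naming, apart from Iglv2, and a few list members are counted but not reported here by name. The code was tested on simulated data with 200 genes changed 4-fold, of which 138 were called and 0 others. Alternatives were DESeq2 1.42.0, other filters and scalings, single lanes, lanes as samples, other thresholds, the model without pool, each library left out, and, added after the data were seen, edgeR's legacy fit and counts at 0.05 for each fit. Python 3.11, pandas 2.3.3, numpy 2.4.6 and matplotlib 3.10.9 were used for summaries and figures.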

Additional observations from a re-analysis of the deposited data

Results flagged for a closer look

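The response of SSMs differed from that of MSMs by the test of the interaction itself in 8 genes. The log2 interaction was 2.48 for H2-Ab1, 2.28 for Cd74, 2.53 for H2-DMb1, 2.69 for Kmo, 2.95 for Htr7, 2.23 for Plbd1, 2.15 for Fgd2 and -2.34 for Tnfrsf9. Their adjusted p-values were between 0.00812 and 0.00947 (edgeR's quasi-likelihood test), with the same sign in pool 1 and pool 2. Across edgeR's other fits on libraries or single lanes they ranged from 0.00198 to 0.0112, with 1 library left out from 0.0204 to 0.162, and in DESeq2's Wald test they were at most 5.69e-20. The fit with lanes as samples counts the lanes of 1 library as replicates, so its p-values are too small and are not given. Groups of 2 libraries are too small to search for single libraries that stand apart.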

How the results depend on the processing

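The interaction was called in 8 genes. It was called in 677 by DESeq2's Wald test, 2849 with lanes as samples, 25 and 29 on lane 3 and lane 4 alone, 12 with either other gene filter, 4 with DESeq2's size factors, 1 after a Holm adjustment, 215 at 0.05 and 0 with any library left out. Without pool as a replicate block, 11 genes were called, 796 in the SSM response, 9 in the MSM response, 10 opposite and 0 alike. For the SSM response (640) counts were 1932 in the Wald test, 4694 with lanes as samples, 1832 at 0.05, 7 after Holm and 2 to 345 without a library. For the MSM response (5) they were 496, 2673, 93 and 0 in the same order and 0 to 3 without a library, 24 and 17 on the single lanes, 23 in the legacy fit, 13 with the stricter gene filter and 7 with no gene filter. Opposite estimates among called genes (6) numbered 423, 1605, 145 and 1, 22 and 25 on the single lanes, 10 with no gene filter, 9 with the stricter filter, 4 with DESeq2's size factors and 0 without any library. Alike genes (1) numbered 87, 1049, 15 and 0, 3 on either lane and in the legacy fit, 2 with the stricter filter and 0 to 1 without a library. The cause of these differences was not tested, except that leaving out a library or adding lanes changes the samples that give the spread. At 0.05, the count of interaction genes (215) was 196 to 309 in the other fits on libraries or single lanes by edgeR, and 187 of the 215 genes were shared with the fit without the replicate block. The sign of the interaction of all 8 called genes was kept in each fit listed. The near-zero interaction of Spon1 (-0.12) reversed in 3 fits, to 0.09 and 0.35 without the ndLN libraries of pool 1 of MSMs and SSMs and 0.08 without SSM tdLN pool 1, within a range of -0.51 to 0.35 over the left-out libraries. Without the replicate block, Tnfrsf9 and Htr7 had adjusted p-values of 0.0112 and 0.0107, and the other 6 of the 8 genes kept their call.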
